A study of Mus musculus with 49 samples.

Results

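Fos, Fosb, Junb, Egr1, Egr2, Npas4, Nr4a1, Arc, Dusp1 and Bdnf are 10 genes whose transcription follows neuronal firing. They were taken by symbol from a table of 45252 genes, in which each symbol matched 1 row. All 10 passed the filter on low counts, which left 18220 genes for testing. RNA-seq was done on the neocortex of 49 mice bred on C57BL/6J x C3H/HeJ, 1 library per mouse. The ctrl-PBS group held 17 monogenic mice, 10 female and 7 male, with only 1 of the transgenes that form the model, and which of them a mouse carried is not given in the sources used here. The TDP-PBS group held 10 bigenic rNLS8 mice, 4 female and 6 male, the TDP-10+12 group 10 bigenic mice, 6 female and 4 male, and the TDP-15 group 12 bigenic mice, 5 female and 7 male. In rNLS8 mice the neurofilament heavy chain promoter drives tTA in neurons, and tTA turns on hTDP-43ΔNLS, a human TDP-43 that lacks the signal for nuclear import, when doxycycline is withdrawn. TDP-10+12 mice were immunized with the combined TDP-43 peptides 10 and 12 and TDP-15 mice with the C-terminal peptide 15, which carries phosphorylated serines, at 40 µg per injection with adjuvant. PBS took the place of the peptide in the other groups. All mice, controls included, were injected from 8 weeks of age, 5 times before and 1 time after induction, lost doxycycline at 25.5 weeks, and were killed under ketamine and xylazine 3 weeks later, at 28.5 weeks.

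Immediate early genes are transcribed within minutes of strong synaptic input, without new protein synthesis. Calcium that enters through NMDA receptors and voltage-gated channels activates calmodulin-dependent and MAP kinases, which phosphorylate CREB and the partners of serum response factor on promoters that are already occupied. Many of the products are transcription factors (the AP-1 proteins Fos, Fosb and Junb, the zinc finger proteins Egr1 and Egr2, Npas4 and the orphan nuclear receptor Nr4a1), and others act at once at the synapse or on the signal (Arc, the neurotrophin Bdnf, the MAP kinase phosphatase Dusp1). In cortex their short-lived RNA is widely read as a trace of recent firing.

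The upstream sequences show what these genes share in letters. RefSeq promoter windows on GRCm38.p6 were searched for 8 of the 10 members, all but Egr1 and Arc. They made 18 windows, since Egr2 has 5 annotated starts and Bdnf 7. Each motif was searched on both strands in the 250 bases before the start. The core of the cAMP response element (CRE), TGACG, bound by CREB, was in at least 1 window of all 8 members, against 19.8% of all 27025 genes with a window. By window the share over all genes was 17.8%, and 3 of 5 Egr2 windows and 1 of 7 Bdnf windows held it. The full element TGACGTCA, which holds the core on each strand, was in 1 member, Dusp1, 143 bases upstream of its start, against 1.77% of genes. The CArG box, the binding sequence of serum response factor, was in 4 of 5 Egr2 windows, some of which overlap and share a site. In these 250 bases it was in no other member searched, and 1.62% of genes held it. Sites farther upstream were not looked for, for this or any other motif. The EGR site GCGGGGGCG was in 2 members, Fosb and Nr4a1, against 2.93%. The AP-1 site, TGACTCA or TGAGTCA, was in none of those searched, against 5.16%. A match describes these letters only. The windows of Fos, Egr2, Nr4a1 and Junb are given because they carry the core and differ in how many they carry. Each is written 5′ to 3′ on the gene's strand up to the base before the RefSeq start, with matches in capitals. Fos has CRE cores 129 and 66 bases upstream, Nr4a1 has 4 and an EGR site, Egr2 has 2 that flank a CArG box, and Junb has 1.
Fos, chr12:85473640-85473889, plus strand: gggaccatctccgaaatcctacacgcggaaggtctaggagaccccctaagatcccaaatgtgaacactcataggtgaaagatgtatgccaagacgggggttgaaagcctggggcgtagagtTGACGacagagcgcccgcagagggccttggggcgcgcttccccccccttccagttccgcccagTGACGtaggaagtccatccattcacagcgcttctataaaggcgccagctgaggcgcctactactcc
Egr2, chr10:67537619-67537868, plus strand: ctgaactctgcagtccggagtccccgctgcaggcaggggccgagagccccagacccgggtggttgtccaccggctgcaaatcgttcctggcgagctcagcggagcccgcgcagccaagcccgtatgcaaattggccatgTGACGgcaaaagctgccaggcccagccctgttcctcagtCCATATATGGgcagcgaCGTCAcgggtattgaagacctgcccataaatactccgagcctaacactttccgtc
Nr4a1, chr15:101266596-101266845, plus strand: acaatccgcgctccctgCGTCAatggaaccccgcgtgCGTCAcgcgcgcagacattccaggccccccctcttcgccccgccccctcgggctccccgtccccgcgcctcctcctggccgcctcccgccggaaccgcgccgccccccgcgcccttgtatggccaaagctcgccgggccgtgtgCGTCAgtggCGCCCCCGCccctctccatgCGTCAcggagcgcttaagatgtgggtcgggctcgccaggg
Junb, chr8:84978749-84978998, minus strand: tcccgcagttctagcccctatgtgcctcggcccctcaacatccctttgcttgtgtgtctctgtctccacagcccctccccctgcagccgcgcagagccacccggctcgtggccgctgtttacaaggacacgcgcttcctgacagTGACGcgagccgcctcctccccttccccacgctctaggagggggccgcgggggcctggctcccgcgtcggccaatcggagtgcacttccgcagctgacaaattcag

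The total count per mouse lay between 17775738 and 21033608, with a median of 19955601, and 3 counts, taken as the smallest level that can be shown, equal 0.143 to 0.169 CPM, the count relative to library size. Library sizes were scaled by TMM factors, which lay between 0.929 and 1.06. The lowest count of any member in any mouse was 34, for Egr2. Tardbp, the mouse gene for TDP-43, averaged 146 CPM ± 9.27 (SD) over the 17 ctrl-PBS mice and 118 ± 14.0 over the 10 TDP-PBS mice, and its log2 fold changes against ctrl-PBS were between -0.24 and -0.30 in the 3 rNLS8 groups. Nothing in the labels says that the mice of a group came from separate litters or cages, so p-values measure the spread between these mice.

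The first question was whether the transgene changed the activity-regulated genes. In TDP-PBS 5 of the 10 members fell, Fos, Egr1, Egr2, Npas4 and Arc, and none rose, in a test in which 43.5% of all genes tested were called and 21.6% were called lower. Egr2 fell by 64.3%, Arc fell by 61.6% and Npas4 fell by 50.9%. In TDP-10+12 4 members fell, Egr1, Npas4, Arc and Dusp1, with 40.8% of all genes called and 20.0% lower. In TDP-15 7 members fell, Fos, Junb, Egr1, Egr2, Npas4, Nr4a1 and Arc, with 46.9% of all genes called and 23.2% lower. The 3 comparisons share the same 17 control mice. TDP-10+12 and TDP-15 differ from ctrl-PBS in peptide as well as in genotype. In those comparisons, and in the average of the rNLS8 groups, peptide and genotype cannot be told apart. Egr1, Npas4 and Arc fell in all 3, Fosb and Bdnf passed the test in none, and the median of every member was lower in each rNLS8 group than in ctrl-PBS. With the 3 rNLS8 groups averaged, 8 members fell, all but Fosb and Bdnf, with 54.2% of all genes called. In that average Dusp1 (adjusted p = 0.0441) lost its call in 4 of 8 other settings and in 33 of 49 runs with 1 mouse left out (up to 0.0956), and Bdnf passed without mice 266 and 301 of TDP-10+12 (-0.25, 0.0335). The median log2 fold change over the 10 members was -0.50 in TDP-PBS, -0.51 in TDP-10+12 and -0.70 in TDP-15, and over all genes tested it was 0.00 in each. Calls are at an adjusted p under 0.05, from edgeR's quasi-likelihood test over all genes. In bulk tissue, fewer cells that express a gene and less RNA per cell cannot be told apart.

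**Figure D1:**
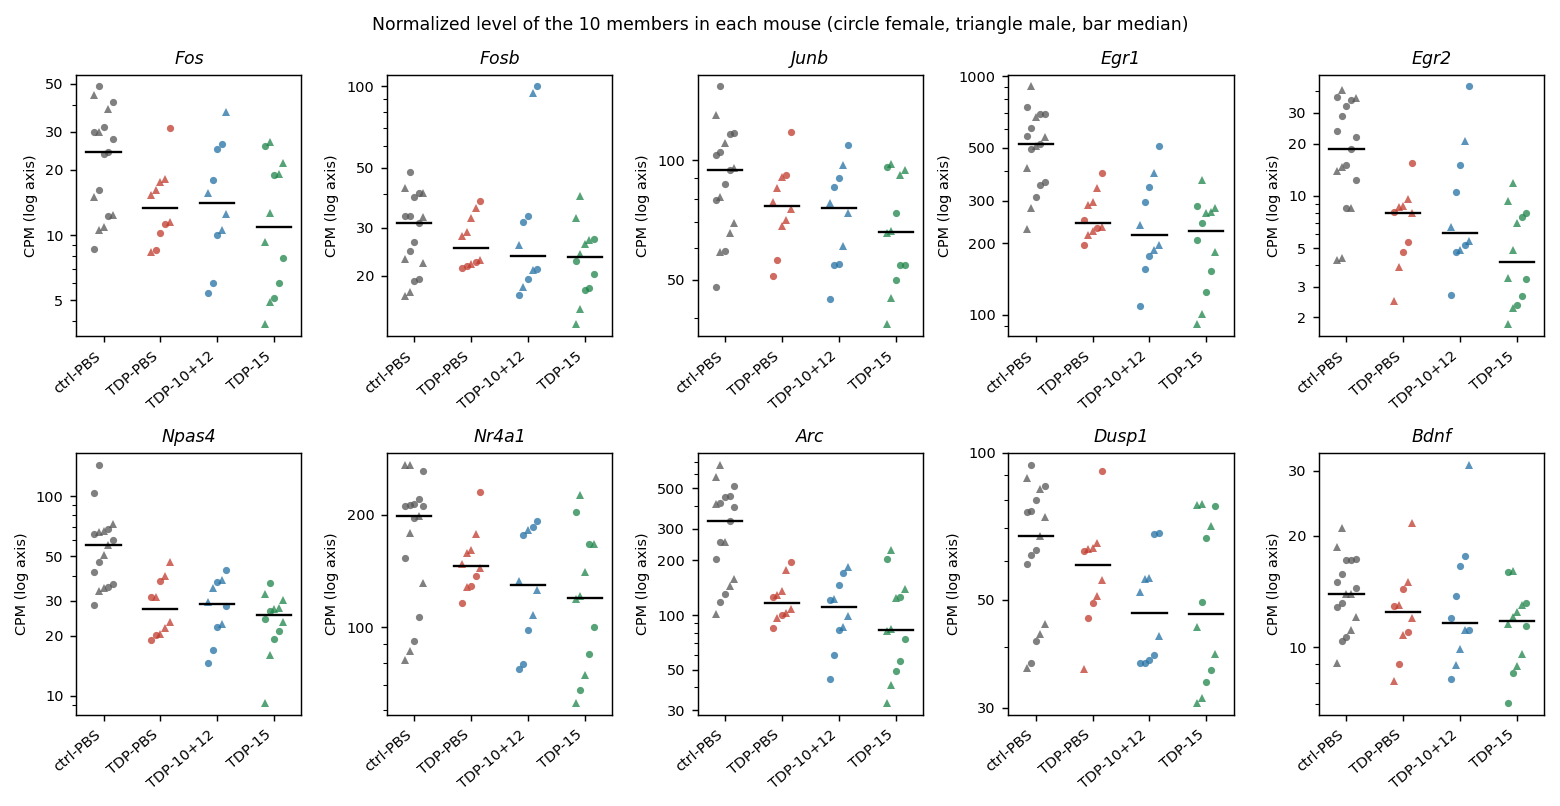
CPM of the 10 members (vertical, log axis) in each of the 49 mice by group (horizontal), with circles for females, triangles for males and a bar at the group median. Arc, Egr1 and Npas4 lie lower in the rNLS8 groups, 2 mice of TDP-10+12 stand far above all others for Fosb, and the groups overlap for every member.

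Arc, which encodes a capsid-like protein that removes AMPA receptors from synapses, is transcribed from chromosome 15, 74669083 to 74672570 on the minus strand of GRCm38 (GENCODE vM21). It lay between 101 and 674 CPM in the 17 ctrl-PBS mice, with a median of 329. In TDP-PBS it lay between 84.8 and 196 (median 117), in TDP-10+12 between 44.7 and 185 (median 110) and in TDP-15 between 32.9 and 229 (median 82.8). All 32 rNLS8 mice were below the control median, and 3 of 10, 5 of 10 and 7 of 12 were below the lowest control mouse, so the groups overlapped. The log2 fold change against ctrl-PBS was -1.38 ± 0.29 (SE, adjusted p = 0.000107) in TDP-PBS, -1.55 ± 0.30 (2.27e-05) in TDP-10+12 and -1.66 ± 0.28 (1.65e-06) in TDP-15.

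Egr1, the zinc finger factor also called Zif268, lies on chromosome 18, 34859823 to 34864984, plus strand. Its control mice lay between 229 and 905 CPM around a median of 521. The medians of TDP-PBS, TDP-10+12 and TDP-15 were 242, 217 and 225, with highest mice at 391, 510 and 369. No rNLS8 mouse reached the highest control, and 3 of 10, 5 of 10 and 6 of 12 were under the lowest. Its log2 fold changes were -0.97 ± 0.22 (adjusted p = 0.000216), -1.01 ± 0.22 (0.000146) and -1.29 ± 0.21 (6.85e-07).

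Npas4, a bHLH-PAS factor of neurons that responds to calcium and shapes inhibitory synapses, lies on chromosome 19, 4984355 to 4990316, minus strand. The control mice ran from 28.3 to 144 CPM with a median of 57.1. TDP-PBS ran from 19.0 to 46.6 (median 27.3), TDP-10+12 from 14.5 to 42.8 (28.9) and TDP-15 from 9.24 to 36.7 (25.4). The highest mouse of each rNLS8 group was thus under the control median, and of all members Npas4 had the most TDP-15 mice, 9 of 12, under the lowest control. Its log2 fold changes were -1.03 ± 0.21 (adjusted p = 7.72e-05), -1.05 ± 0.21 (6.24e-05) and -1.28 ± 0.20 (5.33e-07).

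Egr2, a relative of Egr1 known as Krox20 and for its part in myelination, had the largest SD of log2 CPM around the group means among the members. It ran from 4.28 to 40.5 CPM in ctrl-PBS (median 18.5), from 2.46 to 15.5 in TDP-PBS (8.00), from 2.67 to 42.7 in TDP-10+12 (6.07) and from 1.82 to 11.9 in TDP-15 (4.14). The TDP-10+12 group alone held a mouse above the highest control. Egr2 fell by 64.3% in TDP-PBS (adjusted p = 0.00115) and by 74.4% in TDP-15 (1.30e-05), and in TDP-10+12 its log2 fold change of -0.83 ± 0.36 missed the threshold (0.0632). It passed there without control mouse 110, 131 or 137 or without mouse 266 or 301 (adjusted p between 0.00259 and 0.0488), and by limma-voom with quality weights on all mice (-1.22, 0.00755).

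Fos, the founding AP-1 factor, ran from 8.58 to 48.5 CPM in ctrl-PBS (median 24.2), from 8.35 to 31.1 in TDP-PBS (13.4), from 5.38 to 36.9 in TDP-10+12 (14.1) and from 3.87 to 26.8 in TDP-15 (10.9). The control mice themselves spanned low and high values, and 8 of the 10 TDP-PBS mice lay within their range. The call in TDP-PBS was near the threshold, with a log2 fold change of -0.76 ± 0.31 and an adjusted p of 0.0465. It was lost without any 1 of 18 of the 27 mice (adjusted p up to 0.0892) and kept without TDP-PBS mouse 82 or without control mouse 110, 131, 137, 146, 193, 280, 318 or 322. It was also lost with no filter on low counts (0.0704), with sex as a covariate (0.0506) and by limma-voom with quality weights (0.0627). Fos fell by 46.0% in TDP-15 (0.0115), and in TDP-10+12 its log2 fold change was -0.59 ± 0.31 (0.127), which passed without mouse 301 (0.0435) and by limma-voom with quality weights (0.0456).

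Fosb, the AP-1 factor whose splice form ΔFosB is long-lived, and Junb, a partner of Fos proteins, lie on chromosome 7, 19302696 to 19310051, minus strand, and chromosome 8, 84974484 to 84978718, minus strand. Fosb did not pass the test in any comparison. Its medians were 31.4 CPM in ctrl-PBS, 25.3 in TDP-PBS, 23.5 in TDP-10+12 and 23.3 in TDP-15, and the 95% intervals of its log2 fold change against ctrl-PBS were -0.60 to 0.33, -0.10 to 0.80 and -0.78 to 0.10. It was the only member with a fitted value above 0 in any of the 3 comparisons, in TDP-10+12, where the median was lower than in ctrl-PBS and 2 mice, described further on, were above the highest control. Without those mice the value there was -0.34 instead of 0.35. Junb fell in TDP-15 by 25.4% (adjusted p = 0.0199), from a control median of 94.7 CPM to 66.0. In TDP-PBS and TDP-10+12 its log2 fold changes were -0.24 ± 0.16 (0.239) and -0.31 ± 0.16 (0.128).

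Nr4a1, an orphan nuclear receptor also called Nur77, spans 101254269 to 101274795 of chromosome 15, plus strand. Its medians were 198 CPM in ctrl-PBS, 146 in TDP-PBS, 129 in TDP-10+12 and 120 in TDP-15, with control mice from 81.7 to 272. It fell by 29.8% in TDP-15 (adjusted p = 0.0209). Its log2 fold changes were -0.25 ± 0.20 (0.306) in TDP-PBS and -0.42 ± 0.20 (0.0805) in TDP-10+12, where it passed without control mouse 110, 131 or 318 (0.0440 to 0.0498).

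Dusp1, the phosphatase that ends MAP kinase signalling, spans 26505590 to 26562128 of chromosome 17, minus strand, and Bdnf, the ligand of the receptor TrkB, spans 109674700 to 109727007 of chromosome 2, plus strand. Dusp1 had medians of 67.5 CPM in ctrl-PBS, 58.9 in TDP-PBS, 46.9 in TDP-10+12 and 46.7 in TDP-15. Its call in TDP-10+12, a fall of 24.9% with an adjusted p of 0.0471, was lost without any 1 of 18 of the 27 mice (up to 0.100) and kept without mouse 277 or 313 or without control mouse 110, 131, 146, 193, 280, 318 or 322. No TDP-10+12 mouse was outside the control range for Dusp1. Bdnf medians were 13.9, 12.5, 11.6 and 11.8 CPM in the same order. Its 95% intervals against ctrl-PBS were -0.49 to 0.16, -0.35 to 0.29 and -0.61 to 0.01, and in TDP-15 it passed only in a fit of those groups alone (0.0390).

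**Figure D2:**
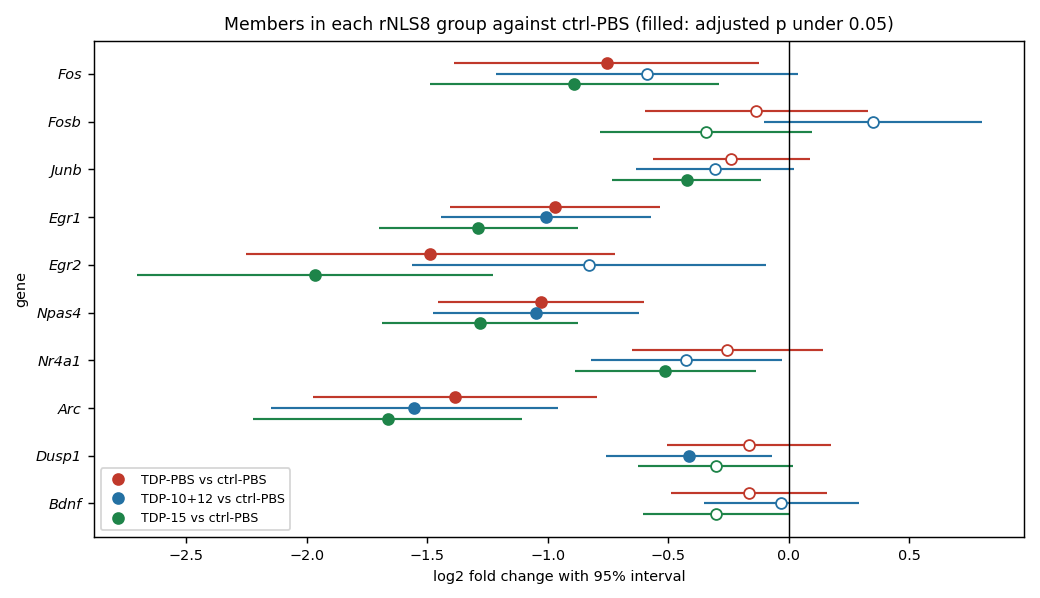
Log2 fold change against ctrl-PBS (horizontal) of each member (vertical) in the 3 rNLS8 groups, with 95% intervals as bars; filled points passed an adjusted p of 0.05. Arc, Egr1 and Npas4 are filled and below 0 in all 3 groups, and Fosb and Bdnf are open throughout.

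Some members share bases with other genes, and the strand setting of the counting is not given in the sources used here, so that reads in those bases cannot be told apart. Junb overlaps Prdx2 on the other strand over 173 bases, 7.52% of its exons. Bdnf overlaps the antisense gene Gm45346 over 896 bases, 14.4% of its exons, and Dusp1 overlaps Ergic1 over 11 bases, with 3 further genes that overlap its span outside exons. No gene of the annotation overlaps Fos, Fosb, Egr1, Egr2, Npas4, Nr4a1 or Arc.

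Per kilobase of annotated exon, Egr1 and Arc had the highest levels in ctrl-PBS, with 117 ± 41.0 and 107 ± 57.0 CPM per kb (SD, n = 17), less apart than their spread. Nr4a1 (51.9 ± 18.1) and Junb (40.2 ± 12.2) followed, also less apart than their spread, and then Dusp1 (19.8 ± 5.82), Npas4 (14.4 ± 6.97), Fos (10.6 ± 5.45), Egr2 (6.19 ± 3.60), Fosb (4.80 ± 1.56) and Bdnf (2.31 ± 0.521). From Dusp1 down to Fosb each neighbour was within 1 SD of the next. In TDP-PBS Arc, at 41.1 ± 11.8 CPM per kb (n = 10), came after Nr4a1, at 43.5 ± 9.24, and Egr2 came after Fosb.

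Markers of cell types moved with the genotype too. Over all genes tested, 43.5% were called in TDP-PBS, 40.8% in TDP-10+12 and 46.9% in TDP-15, and 21.6%, 20.0% and 23.2% were called lower. Of 8 neuron markers such as Nefl and Snap25, 7 fell in each rNLS8 group. Their summed level lay between 5849 and 7135 CPM in ctrl-PBS and 3918 and 4835 in TDP-PBS. In TDP-10+12 it lay between 4132 and 4755 and in TDP-15 between 4172 and 4834. The log2 ratio of means to ctrl-PBS was -0.51, -0.50 and -0.49. Of 8 excitatory neuron markers 5 fell and 1 rose in TDP-PBS, and of 6 inhibitory neuron markers 4 fell. Of 6 microglia markers 4 rose there, with sums of 167 to 194 CPM in ctrl-PBS and 194 to 265 in TDP-PBS. Of 7 olfactory bulb markers 4 fell in TDP-PBS, with sums of 10.8 to 236 CPM in ctrl-PBS and 12.7 to 29.4 in TDP-PBS, and none passed in the immunized groups. In TDP-10+12 6 excitatory and 5 inhibitory markers fell, and 4 microglia markers rose and P2ry12 fell. In TDP-15 5 excitatory markers fell and 1 rose, 5 inhibitory markers fell, and the same microglia markers rose and P2ry12 fell. Of 4 choroid plexus markers tested, Ttr, Kl and Folr1 rose in TDP-10+12 and Ttr in TDP-15, with sums of 11.6 to 369 CPM in ctrl-PBS, 11.4 to 1281 in TDP-PBS, 21.7 to 1695 in TDP-10+12 and 12.9 to 1546 in TDP-15. The sum of the striatum markers was 303 to 1494 CPM in ctrl-PBS and 470 to 1117 in TDP-15. No marker of any list was at 0 in all mice of a group. The part of these shifts in the members' levels was not tested. The fitted log2 fold changes of Arc, Egr1, Egr2, Npas4 and Fos were below the log2 ratio of the neuron marker sum in each rNLS8 group. Those of Fosb, Junb, Dusp1 and Bdnf were above it. That of Nr4a1 was above it in TDP-PBS and TDP-10+12 and below it in TDP-15. Several lay within 1 SE of it, such as Fos in TDP-10+12 (-0.59 ± 0.31) and Nr4a1 in TDP-15 (-0.51 ± 0.19). The order also depends on the markers summed. Excitatory marker sums averaged 4127 CPM in ctrl-PBS and 3252, 3120 and 3191 in the rNLS8 groups, a smaller relative fall.

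The next question was whether immunization changed these genes within rNLS8 mice. No member passed the test in TDP-10+12 against TDP-PBS, in TDP-15 against TDP-PBS or in TDP-10+12 against TDP-15, and 0% of all genes tested did so in edgeR, although 953, 552 and 1244 genes had an unadjusted p under 0.05. DESeq2 and limma-voom also called 0 members in each, and over all genes limma-voom called 2 in TDP-10+12 against TDP-PBS and DESeq2 none. For Arc the log2 difference was -0.17 (95% interval -0.80 to 0.46) in TDP-10+12 and -0.28 (-0.88 to 0.32) in TDP-15 against TDP-PBS. For Egr1 the values were -0.04 (-0.51 to 0.44) and -0.32 (-0.77 to 0.13), and for Npas4 -0.02 (-0.49 to 0.45) and -0.25 (-0.71 to 0.20). These intervals include both no change and shifts of the size seen for some members against ctrl-PBS. Between the immunized groups, Egr2 was 1.14 ± 0.40 and Fosb 0.69 ± 0.24 higher on the log2 scale in TDP-10+12 than in TDP-15, with unadjusted p of 0.00624 and 0.00636 and an adjusted p of 0.549 for both. Without mice 266 and 301 of TDP-10+12, described next, these differences were 0.36 for Egr2 and -0.01 for Fosb, and without mouse 266 alone they were 0.65 and 0.41.

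A pair of TDP-10+12 mice, the female 266 and the male 301, carried much of the spread of that group; they were singled out after their values were seen. For Fosb they had 99.8 and 94.7 CPM, while the other 8 mice of the group had 17.0 to 33.2 and the highest of the other 47 mice had 48.1. For Egr2 they had 42.7 and 20.6 CPM against 2.67 to 15.0, and for Bdnf 17.6 and 31.2 against 8.20 to 16.6. They were above the other 8 mice for 6 of the 10 members, Fos, Fosb, Junb, Egr1, Egr2 and Bdnf, against 5.55% of all genes tested. The count of 6 rests on the values by which the mice were singled out. For Npas4 (37.2 and 34.8 CPM) and Nr4a1 (177 and 181) both lay within the range of the others, for Arc mouse 266 did (146) and mouse 301 did not (185, others up to 170), and for Dusp1 they were at its lower end (37.6 and 42.1, others 37.0 to 68.7). The members were thus not raised alike in these mice.

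Both mice also stood above all other 47 for 2 of 22 other immediate early transcription factors, Egr4 and Klf10. They did so for 6 of 30 activity-regulated effectors, Nptx2, Ptgs2, Rgs2, Inhba, Arl4d and Kdm6b. The share over all genes tested was 0.494%. These counts also depend on how the mice were singled out, since Egr4, Klf10 and Ptgs2 move with the members within groups. Inhba, a subunit of activin, had 17.3 CPM in mouse 266 and 68.3 in mouse 301, against 4.62 to 8.80 in the other 8. Ptgs2, the inducible cyclooxygenase of neurons, had 17.0 and 34.6 against 3.57 to 6.16. Nptx2, a secreted pentraxin that clusters AMPA receptors, had 73.3 and 73.4 against 14.1 to 24.2. Of the 22 upstream signalling genes none was above all other 47 mice in both.

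Without mice 266 and 301, an alternative added after the data were seen, 7 members fell in TDP-10+12 against ctrl-PBS instead of 4. They were Fos, Junb, Egr1, Egr2, Npas4, Nr4a1 and Arc. Over all genes tested, 6837 of 18437 were called in that fit, against 7442 of 18220 with all mice. Egr2 then had a log2 fold change of -1.59 (adjusted p = 0.000448) and Fos of -0.94 (0.0210), and Dusp1 no longer passed (0.156). In the other 8 mice Fosb averaged 23.4 CPM ± 6.14 (SD, n = 8) instead of 38.2 ± 31.6 (n = 10). The comparisons within rNLS8 mice still called no member.

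**Figure D3:**
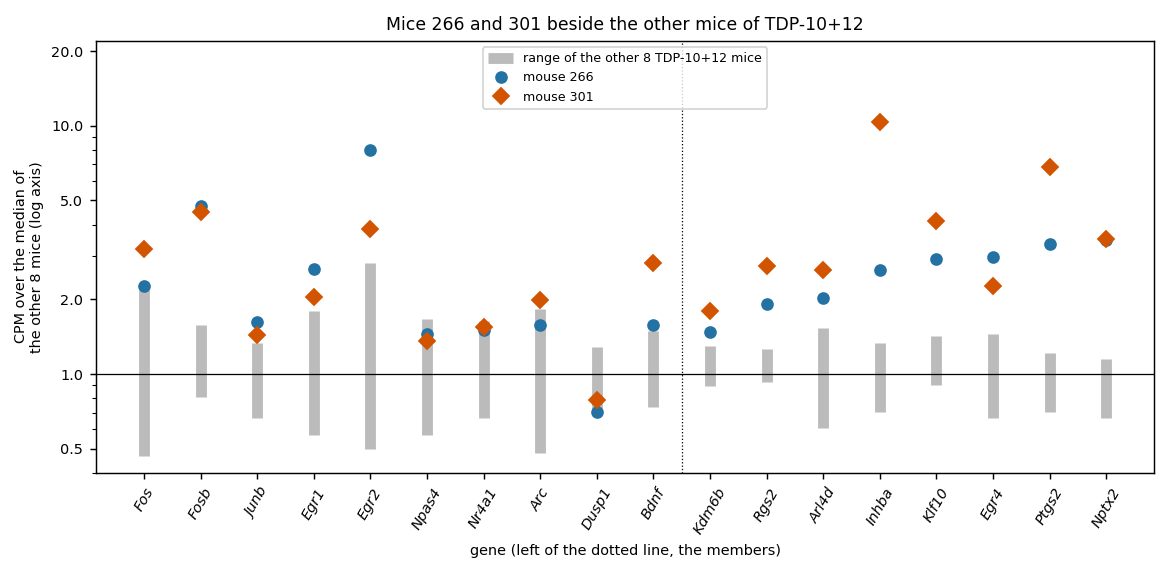
CPM of mouse 266 (circles) and mouse 301 (diamonds) divided by the median of the other 8 TDP-10+12 mice (vertical, log axis), with grey bars for the range of those 8, for the 10 members (left) and the genes of the other lists in which both exceeded all other 47 mice (right). Fosb stands far above the grey bar in both mice, and Npas4, Nr4a1 and Dusp1 lie within it.

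From mouse to mouse within a group the members moved together. After the group mean was subtracted from log2 CPM (prior count 2), Fos correlated over the 49 mice with Arc at Pearson r = 0.92 and Spearman rho = 0.91, with Nr4a1 at 0.913 and 0.915, with Egr1 at 0.90 and 0.91, with Junb at 0.89 and 0.90 and with Egr2 at 0.88 and 0.90. It correlated with Fosb at 0.80 and 0.85, with Dusp1 at 0.75 and 0.76, with Npas4 at 0.69 and 0.74 and with Bdnf at 0.55 and 0.54. In permutation tests within groups, two-sided with 100000 resamples, p was 1e-05, the smallest they can give, for each gene but Bdnf (r, 5e-05; rho, 0.00012), and all 9 passed after adjustment over the 9. Genes outside the members were not tested against Fos, so the share of all genes that would pass is not known. Without mice 243 and 184 of TDP-15, the farthest from the median of Fos, r lay between 0.55 for Bdnf and 0.91 for Arc.

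Within single groups the relation with Arc was found in each, with r = 0.91 and rho = 0.83 over 17 ctrl-PBS mice (permutation p = 1e-05 and 6e-05), 0.82 and 0.84 over 10 TDP-PBS mice (0.00278 and 0.00382), 0.96 and 0.95 over 10 TDP-10+12 mice (3e-05 and 0.00014) and 0.98 and 0.99 over 12 TDP-15 mice (1e-05 for both). For Dusp1 r was 0.91 in ctrl-PBS and 0.90 in TDP-15, but 0.41 in TDP-PBS (permutation p = 0.237) and 0.37 in TDP-10+12 (0.288), and whether the groups differ in this was not tested. For Bdnf r was 0.36 in ctrl-PBS, 0.35 in TDP-PBS, 0.72 in TDP-10+12 and 0.73 in TDP-15. Over all 45 pairs of members r lay between 0.17 and 0.94 with a median of 0.75.

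**Figure D4:**
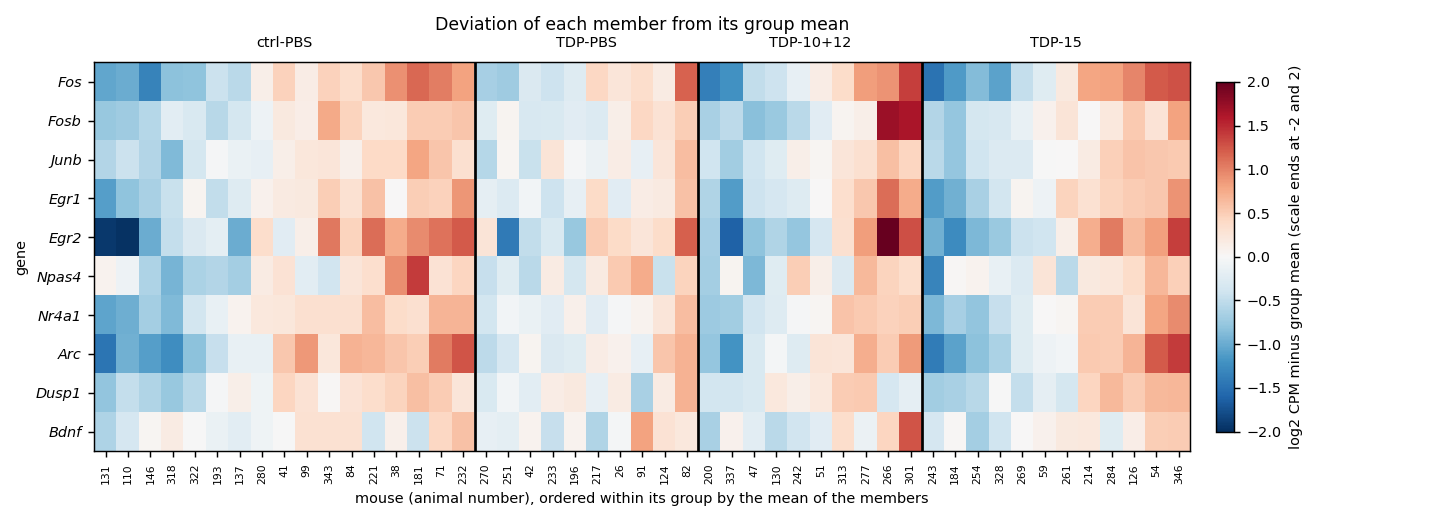
Log2 CPM of each member (rows) minus its group mean in each of the 49 mice (columns, by animal number, ordered within a group by the mean of the members), red for above and blue for below. Columns tend to be of 1 colour, from control mice 131 and 110 at the low end to 232 at the high end, and Npas4 and Bdnf depart from the rest in some mice.

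The spread within groups was wide. The SD of log2 CPM around the group means was 0.98 for Egr2, 0.84 for Fos and 0.76 for Arc, more than that of 98.6%, 97.4% and 96.2% of all genes tested. Fosb (0.57), Egr1 (0.57), Npas4 (0.55) and Nr4a1 (0.53) came next, and Dusp1 (0.45), Junb (0.43) and Bdnf (0.41) had the smallest, with 79.3%, 77.7% and 75.7% of genes below. Genes of low count are noisier on this scale. On DESeq2's variance-stabilized scale the members' spread exceeded that of 96.7% (Bdnf) to 99.7% (Arc) of genes. Without mice 266 and 301 the SD of Fosb was 0.43 instead of 0.57.

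The genes outside the members whose level was most like theirs were found by Pearson's r, over the 49 mice after subtraction of group means, with the mean of the standardised members. These r share libraries and scaling and describe these mice only. The highest was Dusp6 (0.90), a phosphatase of ERK, followed by Egr4 (0.85), Midn (0.82), Ier2 (0.81), Tnfrsf25 (0.80), Gpr3 (0.78), Dusp5 (0.77), Sik1 (0.76), Egr3 (0.76) and Spry4 (0.75). The lowest were Gm40167 (-0.62), Zc3h6 (-0.61), Fam214a (-0.60), Tubgcp2 (-0.59) and Ranbp17 (-0.59). Dusp6 fell by 0.73 on the log2 scale in TDP-PBS (adjusted p = 2.91e-05), and Sik1 had a log2 fold change of 0.02 ± 0.14 (0.934), so that close tracking within groups went with different values between groups.

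Other immediate early transcription factors moved in both directions. Of 22 tested, 4 rose and 10 fell in TDP-PBS, 4 rose and 7 fell in TDP-10+12 and 4 rose and 11 fell in TDP-15. Over all genes tested 43.5%, 40.8% and 46.9% were called in the same order, and 21.6%, 20.0% and 23.2% were called lower. The median log2 fold changes of the 22 were -0.22, -0.19 and -0.29. Fosl1, Atf3, Maff and Klf6 rose in all 3. Atf3, a stress-induced factor of the ATF family, ran from 0.108 to 1.25 CPM in ctrl-PBS (median 0.430). In TDP-PBS it ran from 2.38 to 5.59 (3.32), with a log2 fold change of 2.94 ± 0.23 and an adjusted p of 4.23e-15. Fosl1, an AP-1 factor, had a control median of 0.104 CPM, under the level of 3 counts, and 0.861 in TDP-PBS, so that its fitted value of 3.32 depends on the prior count. Maff, a small Maf factor, and Klf6, a Krüppel-like factor, rose by 1.10 ± 0.26 and 0.66 ± 0.06. Klf10 (-0.86 ± 0.18), Egr3 (-0.78 ± 0.16) and Ier5 (-0.72 ± 0.12) fell in TDP-PBS. Mice 266 and 301 lay above the other 8 of their group for 10 of the 22, against 5.55% of all genes tested. That count again depends on how the mice were singled out.

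Of 30 activity-regulated effectors, 4 rose and 16 fell in TDP-PBS, 6 rose and 13 fell in TDP-10+12 and 3 rose and 19 fell in TDP-15. Over all genes tested 43.5%, 40.8% and 46.9% were called in the same order, and 21.6%, 20.0% and 23.2% were called lower. The medians of the 30 were -0.28, -0.21 and -0.34. Dusp4, a nuclear MAP kinase phosphatase, fell by 1.18 ± 0.19 on the log2 scale in TDP-PBS (adjusted p = 9.09e-07), from a control median of 7.01 CPM to 2.83. Nptx2 fell by 1.08 ± 0.22 (4.49e-05) and Nrn1, a membrane-bound factor of neurite growth, by 1.02 ± 0.09 (4.40e-13). Nrn1 lay between 89.2 and 141 CPM in ctrl-PBS and between 38.0 and 81.7 in TDP-PBS. The 4 that rose were Gadd45g (0.93 ± 0.12), Amigo3 (0.52 ± 0.18), Zfp36 (0.50 ± 0.13) and Gadd45b (0.39 ± 0.13). The first and last encode small stress-sensing proteins and Zfp36 a protein that destabilizes RNA. The 3 that rose in TDP-15 were Gadd45b, Gadd45g and Zfp36.

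The 22 upstream signalling genes ran from receptor subunits to the factors that act on the members' promoters. Of these, 7 rose and 9 fell in TDP-PBS, and 6 rose and 9 fell in each of the immunized groups. Over all genes tested, 43.5% were called in TDP-PBS, 40.8% in TDP-10+12 and 46.9% in TDP-15, and 21.6%, 20.0% and 23.2% were called lower. Camk4, the nuclear calmodulin-dependent kinase that phosphorylates CREB, fell by 0.83 ± 0.08 on the log2 scale (adjusted p = 8.06e-12), Adcy1, a calcium-stimulated adenylyl cyclase, by 0.79 ± 0.08 (1.83e-11) and Map2k1, the kinase of ERK, by 0.61 ± 0.05 (1.86e-15). These falls are in TDP-PBS against ctrl-PBS, and the 3 genes are named for the size of their change. Elk1, a partner of serum response factor, rose by 0.46 ± 0.05, Crtc1, a coactivator of CREB, by 0.39 ± 0.05 and Mef2d by 0.22 ± 0.05. Creb1 itself had a log2 fold change of 0.04 ± 0.07 (0.692).

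**Figure D5:**
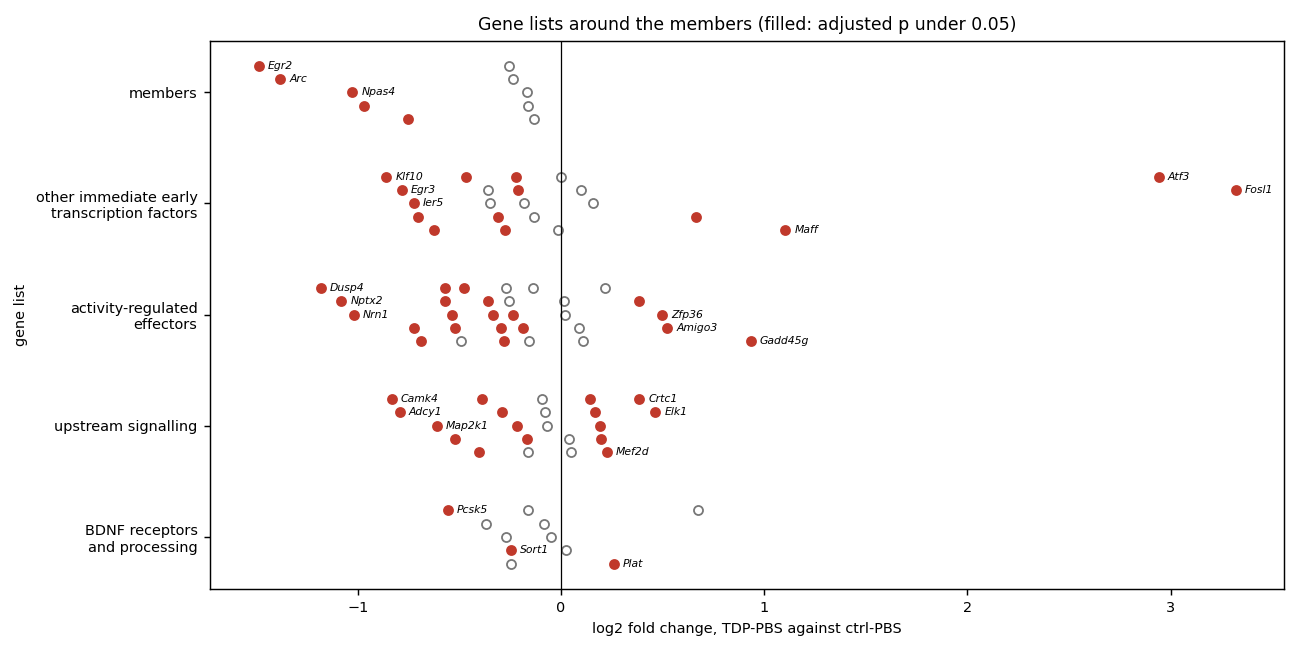
Log2 fold change in TDP-PBS against ctrl-PBS (horizontal) of each gene of the members and 4 other lists (vertical), filled where the adjusted p was under 0.05, with the genes of largest change named. The members lie below 0, and Fosl1 and Atf3 lie farthest to the right.

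Sex was compared in the 27 PBS mice. Of 18589 genes tested there, the change with genotype was called for 4999 in females and 5106 in males, in either direction. Egr1, Egr2, Npas4 and Arc fell in females and in males, by 1.36 and 1.40 on the log2 scale for Arc (adjusted p = 0.0160 and 0.00575) and by 1.22 and 0.84 for Npas4 (0.00814 and 0.0407). No member differed in its change between the sexes, with adjusted p for the interaction between 0.875 and 0.996. edgeR called 0 of 18589 genes in that test, with 1167 at an unadjusted p under 0.05. For Fos the interaction was 0.13 ± 0.55 on the log2 scale.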

How the data were processed

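The deposited file holds raw counts per gene and mouse, whole numbers made by the authors from 100 bp paired-end reads aligned to GRCm38.p6. The submitters' processing notes list HISAT, HISAT2, Bowtie2, Bowtie, RSEM and the build mm10 without their roles, and the strand setting is not given in the sources used here. Groups, sexes and animal numbers came from the labels. The genes and lists were chosen with earlier results of these data known.

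Genes with low counts were removed by filterByExpr with the 4 groups (minimum count 10, minimum total 15). One edgeR quasi-likelihood model (glmQLFit, glmQLFTest) with TMM factors and no covariate then covered the 49 mice (edgeR 4.0.16 in R 4.3.3). Contrasts were two-sided, with Benjamini-Hochberg adjustment over all 18220 genes and 0.05 as the threshold. Standard errors came from the F statistic, and 95% intervals from them. The genotype by sex interaction used the 27 PBS mice. The step was tested on simulated counts. Total counts per mouse were 17775738 to 21033608, and the 3-count level covers counting error only. Named were all members, up to 3 called genes per direction of each other list by size of change in TDP-PBS, all called genes where 5 or fewer, the 10 genes most and the 5 least correlated with the members, and Tardbp. Mice and genes named outside this rule were chosen after their values were seen.

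Alternatives were scaling by the upper quartile or by the size factors of DESeq2, keeping all genes or only those with 10 counts in each mouse, adding sex to the model, fitting only the groups compared, DESeq2 1.42.0, limma-voom with sample quality weights (limma 3.58.1), each mouse left out in turn and, added after the data were seen, both mice 266 and 301 left out. Some genes of the lists, and counts that rest on them, are not reported here.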

Additional observations from a re-analysis of the deposited data

Results flagged for a closer look

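In the groups of 10 mice, the highest or lowest mouse was set against the rest by Dixon's test on CPM for each member. Of 20 tests in all, 5 were flagged. With normal values and independent tests, chance would flag about 1. The test was not run on log2 values and the members move together, so the 5 cannot be set against that 1. In TDP-PBS mouse 82 was far above the others for Fos, at 31.1 CPM, and for Dusp1, at 92.0, and mouse 91 for Bdnf, at 21.7. In TDP-10+12 mouse 266 was far above for Egr2, at 42.7 CPM, and mouse 301 for Bdnf, at 31.2. Fosb in TDP-10+12 was not flagged, since mice 266 and 301 were high together and the test looks at 1 mouse. The groups of 17 and 12 mice were not tested in this way.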

How the results depend on the processing

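Under the other settings, 4 or 5 members fell in TDP-PBS, 3 to 7 in TDP-10+12, 7 or 8 in TDP-15 and 7 or 8 with the rNLS8 groups averaged. The comparisons within rNLS8 mice called 0 members in every setting, and the interaction with sex 0 in both other scalings tried. The 7 in TDP-10+12, against 4 with all mice, came without mice 266 and 301, where 6837 of 18437 genes were called. With each mouse left out in turn the ranges were 4 to 5 in TDP-PBS, 3 to 6 in TDP-10+12, 7 to 7 in TDP-15 and 6 to 8 averaged, where Dusp1 (33 of 49 runs) and Junb (without control mouse 71 or 181, adjusted p = 0.0514 and 0.0576) lost their calls. No called member changed sign under any setting. The median share of genes with a smaller spread than a member was 87.4%, and 99.3% on DESeq2's variance-stabilized scale. All 9 correlations with Fos passed in every setting. Egr2 had the lowest count of the members, 34 in 1 mouse. No paired analysis was possible, because the replicate numbers are those of single animals and the labels give no litter.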

Other observations

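Genes around the Bdnf protein, its receptors and the proteases that cut its precursor, were tested as a list of 11. In TDP-PBS 1 rose and 2 fell, where 43.5% of all genes tested were called, and in TDP-10+12 2 rose and 1 fell, where 40.8% were. Plat, the tissue plasminogen activator, rose in all 3 rNLS8 groups, with a log2 fold change of 0.26 ± 0.08 in TDP-PBS (adjusted p = 0.00638), 0.35 ± 0.08 in TDP-10+12 (0.000319) and 0.29 ± 0.08 in TDP-15 (0.00139). Plg, the plasminogen that Plat cleaves, had medians of 0.358 CPM in ctrl-PBS and 0.737 in TDP-15 and passed in both immunized groups. Sort1, the sorting receptor sortilin, fell in all 3, by 0.25 ± 0.04 in TDP-PBS, and Pcsk5, a proprotein convertase, fell in TDP-PBS by 0.56 ± 0.10 and in TDP-15 by 0.42 ± 0.09. Ntrk2, the receptor TrkB, had a log2 fold change of 0.03 ± 0.05 in TDP-PBS (0.674).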
